A study of Rattus norvegicus with 77 samples.

Results

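Sperm RNA of adult male rats of the strain Fischer 344 was profiled on Affymetrix Rat Gene 1.0 ST arrays, and 8 transcripts were followed across the 4 groups of the experiment: Tcp10b, Mfap3l, Lrrc69, Styxl1, Fank1, Phospho1, Spats1 and Tbc1d5. They were picked for lower values in arrays labelled HD than in arrays labelled water, so that difference is given as a description and was not used as a test. Each gene was read from a probe set, the group of probes that reports 1 transcript, whose only gene symbol in the platform annotation was the member. All 8 were found, each on 1 probe set, among 29214 probe sets on the array, of which 15310 carried 1 symbol and covered 14506 genes. No threshold was set for the choice, so there are no values just inside or outside one.

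Water rats (20 arrays) drank water and HD rats (19 arrays) drank 0.33% HD (2,5-hexanedione, a toxicant of Sertoli cells) for 3 months, and both were killed at the end of that exposure. Water-recovery rats (18 arrays) and HD-recovery rats (20 arrays) had the same 3 months of water or HD and then 3 months of water before they were killed. Each array held the RNA of the cauda epididymal sperm of 1 rat, taken after a short wash in a buffer that lyses somatic cells, and p-values therefore measure the spread between rats. The toxicant reached the whole animal, and the RNA was of bulk sperm, in which fewer cells of a type and less RNA per cell cannot be told apart.

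A mature sperm cell has stopped transcribing, and the RNA it carries was made earlier, mostly by spermatocytes and round spermatids in the testis. In spermatids the chromatin is rebuilt with protamines and the tail, acrosome and midpiece are assembled, and many genes of these steps are switched on by germ cell factors such as CREM, which binds the cyclic AMP response element, and the RFX proteins. Whether the 8 transcripts are enriched in testis could not be read from arrays of sperm alone. The sperm label was checked on defining markers over the 77 arrays (all values are log2 values, on which a difference of 1 is a doubling): the log2 value of Prm1, a protamine, lay between 12.15 and 13.69, that of Odf1, a tail fibre protein, between 13.43 and 14.21, and that of Smcp, of the mitochondrial capsule, between 13.46 and 14.24. Markers of other cells also had signal, with Ptprc, the common leukocyte antigen, at 7.06 to 9.21 and Hbb, the beta globin of erythrocytes, at 8.93 to 13.02. These values carry no zero, so absence of a cell type could not be read from them.

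The arrays of a group were not uniform. Of the 77 arrays, 10 stood apart, with a median correlation to the others of their group more than 3 scaled median absolute deviations below the group median: HD replicates 3, 4, 5 and 14, water replicate 20, HD-recovery replicates 2, 9 and 16, and water-recovery replicates 12 and 15. The mean of the 8 transcripts was 9.09, 9.18, 9.07 and 9.72 on these 4 HD arrays, which were the 4 highest of the HD group. It was 7.72, 7.64 and 8.42 on the 3 HD-recovery arrays, among the 4 lowest of their group, and 10.29 and 10.16 on the 2 water-recovery arrays, the highest of theirs, and 10.02 on the water array. Array medians over all probe sets ran from 6.51 to 6.77 in HD, 6.66 to 6.76 in water, 6.61 to 6.77 in water-recovery and 6.66 to 6.78 in HD-recovery.

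The promoters of the members are given as a description, and whether they bear on the values of the arrays was not tested. A promoter of 7 members was given in the RefSeq table (assembly GRCr8), and the 250 bases before the annotated start were searched on both strands for 8 motifs: TGACGTCA (the full cyclic AMP response element), TGACG (its core, which lies inside the full element on each strand), GTTGCCA (a motif of the RFX proteins), AACTGNC (a motif of the meiotic factor A-MYB), CACGTG (the motif known as the E-box), CCAAT (the motif bound by nuclear factor Y), GGGCGG (the motif known as the GC box) and TATAAA (the motif known as the TATA box). The 4 printed below hold the full element, the core at 2 places, the RFX motif or the TATA box, and run from poor to rich in G and C. Capitals mark these motifs, while matches to CCAAT and to the GC box are left in lower case. All 4 are on the plus strand, at chr12:26543945-26544194 for Styxl1, chr1:198007314-198007563 for Fank1, chr9:23024359-23024608 for Spats1 and chr1:55485161-55485410 for Tcp10b.
Styxl1: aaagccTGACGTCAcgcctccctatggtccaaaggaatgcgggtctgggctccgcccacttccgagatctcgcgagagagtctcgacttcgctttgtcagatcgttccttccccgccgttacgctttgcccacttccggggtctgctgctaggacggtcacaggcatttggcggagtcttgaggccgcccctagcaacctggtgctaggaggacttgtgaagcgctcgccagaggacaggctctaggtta
Fank1: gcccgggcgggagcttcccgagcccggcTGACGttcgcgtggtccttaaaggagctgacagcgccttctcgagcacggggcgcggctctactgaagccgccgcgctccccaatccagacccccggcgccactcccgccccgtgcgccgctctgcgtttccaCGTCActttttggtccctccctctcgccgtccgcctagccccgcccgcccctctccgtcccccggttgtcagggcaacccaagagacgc
Spats1: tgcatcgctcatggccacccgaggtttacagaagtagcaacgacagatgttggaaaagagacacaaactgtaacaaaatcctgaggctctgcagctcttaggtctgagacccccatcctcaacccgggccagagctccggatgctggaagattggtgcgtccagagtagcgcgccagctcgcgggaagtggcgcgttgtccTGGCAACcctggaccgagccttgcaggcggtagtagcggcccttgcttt
Tcp10b: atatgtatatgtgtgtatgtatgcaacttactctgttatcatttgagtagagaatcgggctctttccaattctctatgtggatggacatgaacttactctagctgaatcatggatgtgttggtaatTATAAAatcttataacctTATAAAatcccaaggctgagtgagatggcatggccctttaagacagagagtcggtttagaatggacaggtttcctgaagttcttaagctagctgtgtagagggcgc

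The full cyclic AMP response element was found in 1 of the 7 promoters, that of Styxl1, 244 bases before the start, and in 1.59% of all 33469 promoters of this length. Its core was found in Styxl1, Fank1 and Phospho1 and in 18.2% of all promoters, and Fank1 held it at 222 and 89 bases before the start, the latter on the other strand. The RFX motif was found in Spats1, 49 bases before the start and read there on the other strand, and in 3.67% of all promoters. The A-MYB motif was in none of the 7 and in 11.1% of all promoters. The E-box was in Phospho1 and Tbc1d5 (5.59% of all), CCAAT in Fank1, Phospho1, Spats1 and Tcp10b (34% of all), the GC box in Fank1, Phospho1 and Styxl1 (30.5% of all) and the TATA box, at 124 and 106 bases before the start, in Tcp10b (12.9% of all). No motif was shared by all 7 promoters. Their base composition also differed: G and C made up 76% of the promoters of Phospho1 and Tbc1d5, 71.2% in Fank1, 60% in Styxl1 and 58% in Spats1, but 39.6% in Tcp10b and 39.2% in Mfap3l, against a median of 51.2% over all promoters. Mfap3l had 0 CpG dinucleotides and Tcp10b 3, while Phospho1 had 36, Tbc1d5 35 and Fank1 31 (median of all promoters 5).

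Differences are signed as HD minus water, by the labels of the arrays. This sign is the reverse of the one the study gave for the same exposure, and every group keeps the name its label gives. If the labels HD and water were exchanged, every HD minus water value would change its sign, and whether the labels or the study's sign hold was not tested. All 8 transcripts were at their lowest group mean in HD, and the mean was highest in water for 7 of them and in water-recovery for Tbc1d5. The fitted log2 fold changes in limma ran from −1.07 for Styxl1 to −0.46 for Spats1, with a median of −0.94 over the 8 and 0.01 over all probe sets. All 8 had q under 0.05 (q is the share of false calls expected among transcripts called at that level, here by Storey's method), as had 0.455% of all probe sets in this direction and 0.472% in either direction (133 and 138 probe sets). That count follows from how the members were chosen. The share over all probe sets was not stable: 63 were called after array medians were subtracted and 352 after quantile normalization, 76 without water replicate 10 and 376 without HD replicate 14. With the 10 arrays that stood apart dropped, 3727 were lower and 5091 higher. With 1 of the 39 arrays removed at a time, Tcp10b, Mfap3l, Lrrc69, Styxl1 and Phospho1 kept q under 0.05 in all 39 fits, Tbc1d5 in 29, Fank1 in 17 and Spats1 in 12.

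Of the members named for the male germ line, Tcp10b belongs to the t-complex genes, first described from a mouse chromosome region that distorts transmission through sperm. Its lowest, median and highest log2 values were 10.34, 11.45 and 12.09 in water and 9.29, 10.17 and 11.69 in HD. The groups overlapped, but 10 of the 19 HD arrays lay below the lowest water array and 18 below the water median. The log2 fold change was −0.99 (SE 0.19, q = 0.0066, 1.99-fold lower). In the recovery groups the values were 10.68, 11.26 and 12.18 in water-recovery and 9.07, 11.48 and 12.14 in HD-recovery. There the HD-recovery median was the higher, and the lowest value of all 4 groups came from HD-recovery replicate 9, an array that stood apart.

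Fank1, a protein with fibronectin type III and ankyrin repeat domains made from meiosis onward, read 7.42, 8.30 and 9.23 (lowest, median, highest) in water and 6.73, 7.41 and 8.93 in HD. Again 10 HD arrays were below every water array, and 5 water arrays were above every HD array. Its log2 fold change was −0.77 (SE 0.18, q = 0.036, 1.71-fold lower). After recovery it read 7.50, 8.28 and 9.23 in the controls and 6.53, 8.31 and 9.22 in exposed rats, with nearly equal medians. Spats1 (spermatogenesis associated, serine rich 1) read 6.48, 7.31 and 7.95 in water and 6.34, 6.79 and 7.51 in HD. Its HD arrays were packed near the low end of the water arrays, with 18 of 19 below the water median but only 1 below the lowest water array, and the SD was 0.26 in HD and 0.44 in water. Its log2 fold change was −0.46 (SE 0.11, q = 0.044, 1.38-fold lower). In water-recovery Spats1 read 6.85, 7.22 and 8.18 and in HD-recovery 6.34, 7.20 and 7.78.

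Among the enzymes and their relatives, Styxl1 codes for a protein with the fold of a dual-specificity phosphatase but without its catalytic activity. It read 7.55, 8.81 and 9.73 (lowest, median, highest) in water and 6.78, 7.76 and 9.37 in HD. Of the HD arrays 18 of 19 were below the water median and 7 below every water array, while 6 water arrays were above every HD array. The log2 fold change was −1.07 (SE 0.22, q = 0.012, 2.11-fold lower). After recovery it read 7.85, 8.77 and 10.32 in controls and 6.91, 9.07 and 9.91 in exposed rats. Phospho1, a phosphatase that releases phosphate from phosphocholine and phosphoethanolamine and is best known from mineralizing bone, read 8.96, 9.92 and 10.93 in water and 8.17, 8.96 and 10.33 in HD. The HD median equalled the lowest water value to the second decimal, 10 HD arrays were below it, and 8 water arrays were above the highest HD array. The log2 fold change was −0.93 (SE 0.18, q = 0.0092, 1.90-fold lower). In water-recovery Phospho1 read 9.20, 9.88 and 11.23 and in HD-recovery 8.36, 10.09 and 10.86. Of the 20 HD-recovery arrays, 8 lay below the water-recovery median.

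Tbc1d5, a TBC domain protein that acts on the GTPase Rab7 and binds the retromer, the coat that returns cargo from endosomes, read 8.25, 9.38 and 10.00 in water (lowest, median, highest) and 7.48, 8.64 and 9.85 in HD. Only 6 HD arrays were below every water array, and 4 water arrays were above every HD array. Its log2 fold change was −0.76 (SE 0.17, q = 0.027, 1.69-fold lower). After recovery it read 8.70, 9.39 and 10.57 in controls and 8.02, 9.51 and 10.29 in exposed rats. Mfap3l, a membrane protein related to the microfibril-associated protein Mfap3, read 9.65, 10.77 and 11.54 in water and 8.55, 9.67 and 11.27 in HD. Here 9 HD arrays were below every water array, and the log2 fold change was −0.98 (SE 0.21, q = 0.016, 1.97-fold lower). It read 9.93, 10.73 and 11.59 in water-recovery and 8.57, 10.71 and 11.54 in HD-recovery.

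Lrrc69, one of the leucine-rich repeat containing genes, read 7.11, 8.41 and 9.44 in water and 6.36, 7.49 and 8.80 in HD. Of the HD arrays 18 of 19 were below the water median and 6 below the lowest water array, while 8 water arrays were above the highest HD array. The log2 fold change was −0.95 (SE 0.21, q = 0.020, 1.93-fold lower). In water-recovery it read 7.60, 8.37 and 9.84 and in HD-recovery 6.48, 8.49 and 9.42. The highest HD array was replicate 14 for all 8 transcripts. The lowest HD array was replicate 12 for Tcp10b, Mfap3l and Phospho1, replicate 2 for Lrrc69, Fank1 and Tbc1d5, replicate 9 for Styxl1 and replicate 7 for Spats1.

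**Figure D1:**
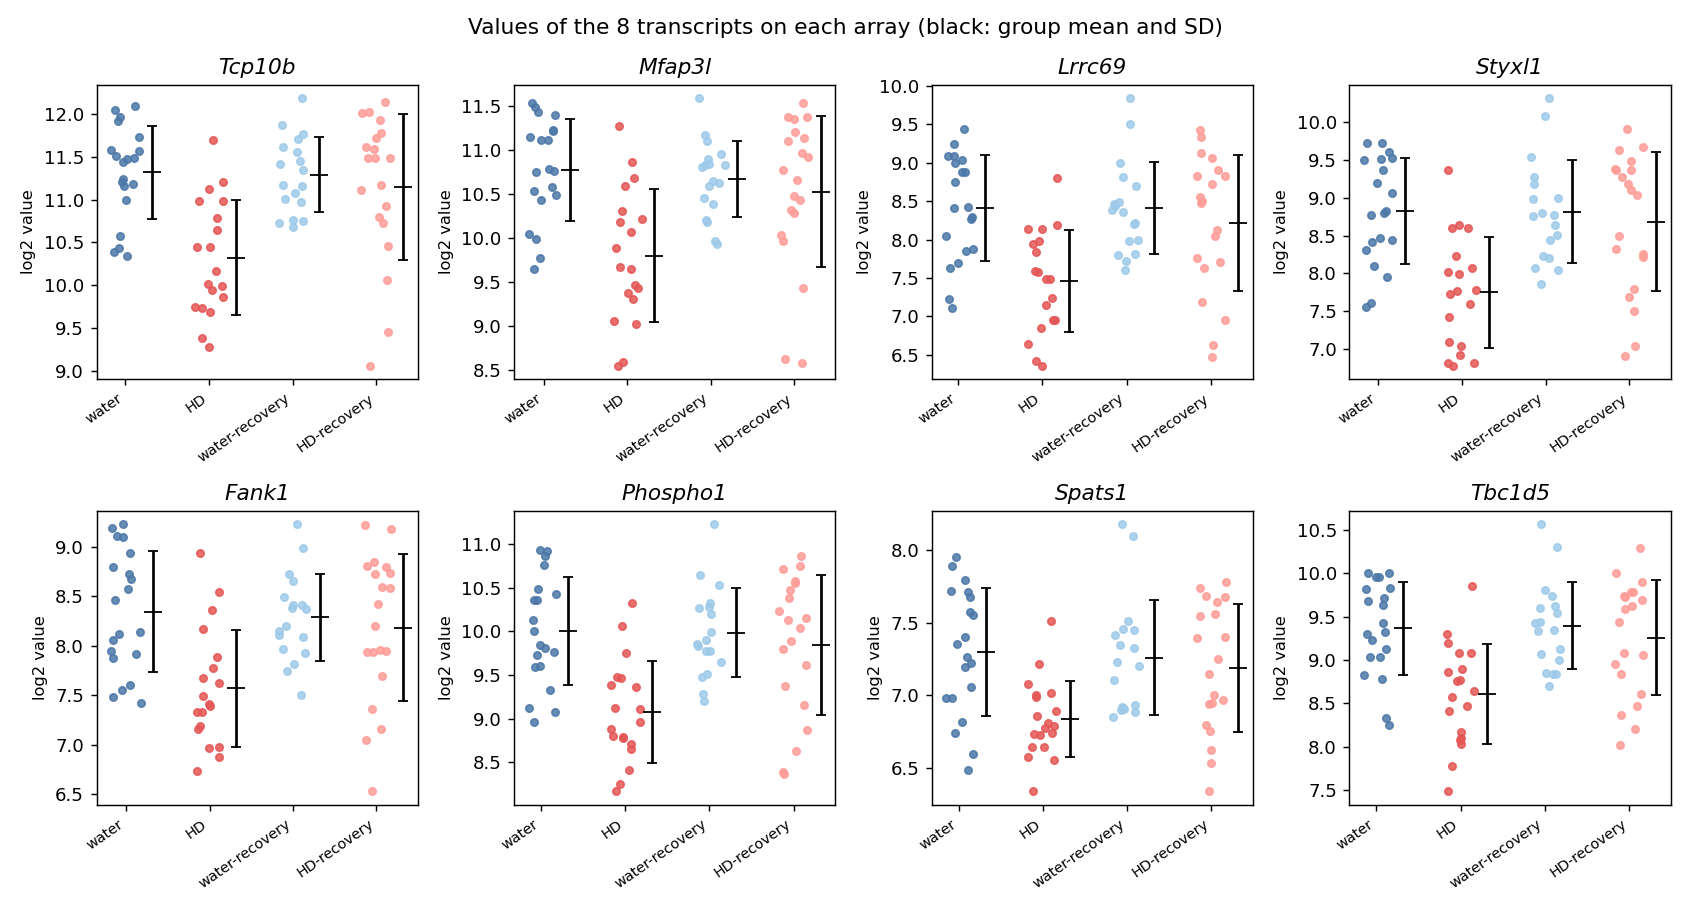
Log2 value (y axis, a separate scale for each transcript) of each of the 8 transcripts on each of the 77 arrays, by group (x axis), where a black line and bar mark the mean and SD. HD lies lowest in each panel with overlap to water, and the HD-recovery points spread over a range that reaches down to that of HD, as for Tcp10b from 9.07 to 12.14.

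The mean of the 8 transcripts was 9.29 ± 0.57 (SD, n = 20) in water, 8.43 ± 0.58 (SD, n = 19) in HD, 9.26 ± 0.48 (SD, n = 18) in water-recovery and 9.13 ± 0.75 (SD, n = 20) in HD-recovery. Between the controls killed at the end of exposure and those killed after recovery, the members differed by −0.11 to 0.03 on the log2 scale (water-recovery minus water). HD-recovery minus HD was 0.35 for Spats1 to 0.93 for Styxl1, with a median of 0.74, and HD-recovery minus water was −0.25 to −0.11. These differences share the HD or water arrays on which the members were chosen and were not tested. The order of the groups was thus HD at the bottom for all 8, with the other 3 groups apart by less than the SD within a group.

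The recovery groups were not used to choose the members, and the comparison of HD-recovery with water-recovery is the test of the 8 transcripts that these data allow. No member passed it in limma (q = 1 for all 8, n = 20 and 18 arrays, 0 of 8 at an unadjusted p under 0.05). The same comparison called 0% of the 29214 probe sets lower and 0% in either direction, by q as by Benjamini-Hochberg adjustment, while 1318 had an unadjusted p under 0.05. The log2 fold changes were −0.14 (SE 0.21) for Tcp10b, −0.10 (SE 0.19) for Fank1 and −0.07 (SE 0.13) for Spats1. They were −0.14 (SE 0.25) for Styxl1 and −0.14 (SE 0.21) for Phospho1. They were −0.14 (SE 0.18) for Tbc1d5, −0.14 (SE 0.21) for Mfap3l and −0.19 (SE 0.24) for Lrrc69. Each was smaller than its standard error. The 95% intervals reached from −0.67 (Lrrc69) to 0.37 (Styxl1), so a difference of up to these sizes could not be told from none. All 8 estimates were below 0, with a median of −0.14 against −0.01 over all probe sets, but 8 to 10 of the 20 HD-recovery arrays were below the water-recovery median.

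The sign of the recovery difference depended on the arrays that stood apart as a set, while no single left-out array turned it. Without these arrays all 8 estimates were above 0, from 0.12 for Spats1 to 0.30 for Styxl1 with a median of 0.20, and none passed the test (q from 0.14 to 0.21). The same fit called 3834 of all probe sets, 1922 lower and 1912 higher, where 0 were called with all arrays. HD-recovery had the largest SD of the 4 groups for all 8 transcripts, with an SD of 0.85 for Tcp10b against 0.44 in water-recovery and of 0.80 for Phospho1 against 0.51. Its lowest array was replicate 9 for Tcp10b, Styxl1, Fank1 and Phospho1, replicate 2 for Mfap3l, Lrrc69 and Tbc1d5, and replicate 7 for Spats1, and between 3 and 5 of its arrays were below the lowest water-recovery array. The mean of the 8 ran from 7.639 to 9.761 in HD-recovery replicates 1 to 10 and from 8.423 to 10.05 in replicates 11 to 20. In water-recovery it ran from 8.61 to 9.515 and from 8.985 to 10.29. The part of the replicate number in these values was not tested. The HD minus water differences without the arrays that stood apart were larger, with a median of −1.12. The arrays left out held the highest means of the 8 in HD and water-recovery and some of the lowest in HD-recovery. Leaving them out was therefore not independent of the members' values. Whether the difference from control itself changed between exposure and recovery was not tested, since the first of the pair chose the members.

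**Figure D2:**
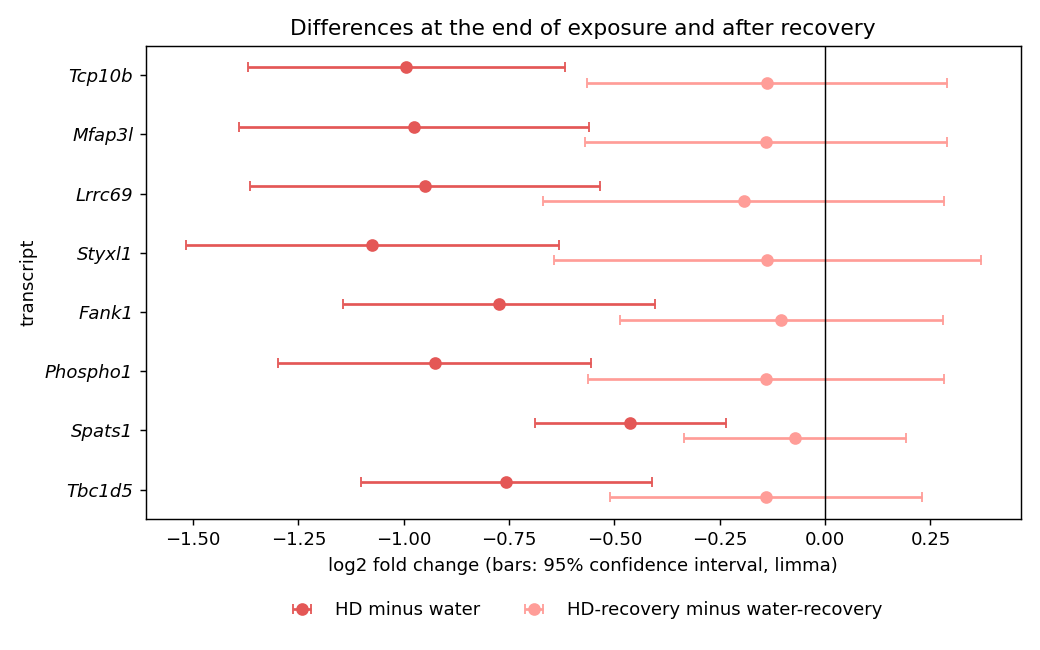
Log2 fold change (x axis) of each transcript (y axis) for HD minus water in dark red and HD-recovery minus water-recovery in light red, with 95% confidence intervals from limma as bars. The dark points, on which the members were chosen, run from −1.07 to −0.46, and every light bar crosses 0.

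Within the groups the 8 transcripts varied together. After the group means were removed, Pearson's r over the 77 arrays lay between 0.78 and 0.97 for the 28 pairs, with a median of 0.90, and Spearman's rho between 0.82 and 0.98. In a permutation test of arrays within groups each pair had p = 1e-05, the smallest 100000 resamples can give, and the same after Benjamini-Hochberg adjustment over the 28 pairs. That test was against no relation at all between 2 transcripts. It cannot set these pairs apart from pairs of other genes, which were not tested. Without the 2 arrays farthest from the median of the first transcript r was 0.79 to 0.98, and without the arrays that stood apart 0.79 to 0.97. The median r of the pairs was 0.94 in water, 0.88 in HD, 0.89 in water-recovery and 0.92 in HD-recovery, so each group showed it alone.

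The pairs were not equally tight. Lrrc69, Styxl1 and Tbc1d5 formed the closest trio, with r of 0.97 for each of their 3 pairs. Tcp10b and Mfap3l had r = 0.97, and Fank1 and Phospho1 had r of 0.946 to 0.955 with each other and with both of these. Tcp10b had r of 0.85 with Lrrc69 and Tbc1d5. Spats1 was the loosest, from 0.78 with Tcp10b to 0.90 with Lrrc69. These groupings were seen in the values and were not tested. In the promoters above, Tcp10b and Mfap3l were the pair poor in G and C, but Fank1 and Phospho1, closely correlated with them, were rich in both. A relation between promoters and these correlations was not tested.

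**Figure D3:**
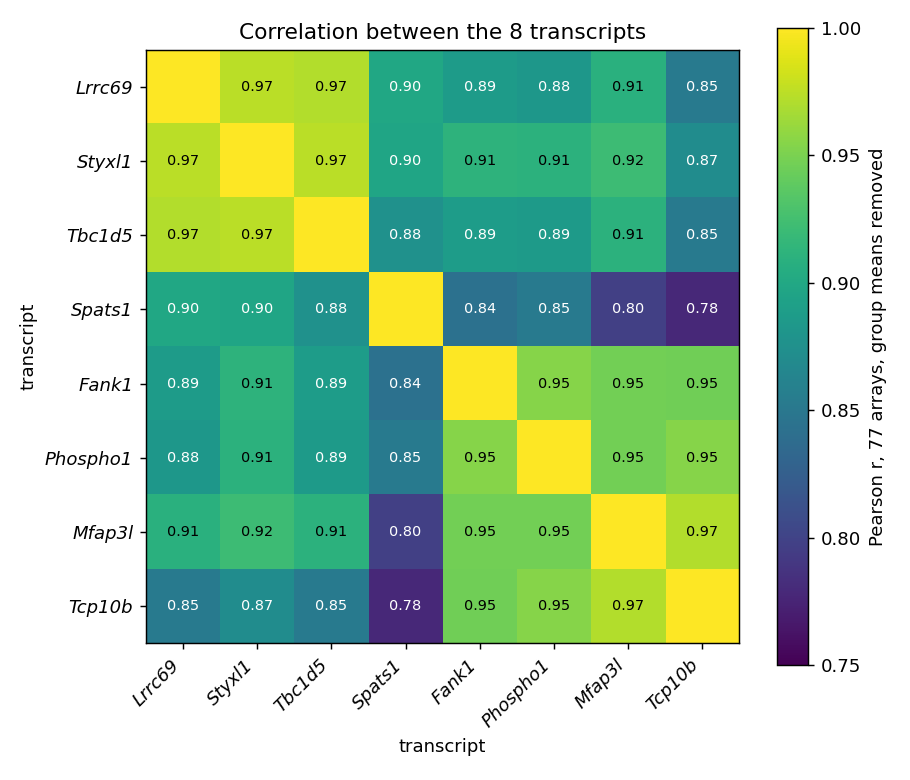
Pearson's r between each pair of the 8 transcripts over the 77 arrays after removal of group means, written in each cell and shaded from 0.75 to 1.00. The trio Lrrc69, Styxl1 and Tbc1d5 at 0.97 and the 4 transcripts Fank1, Phospho1, Mfap3l and Tcp10b at 0.95 to 0.97 stand out as squares, and the row of Spats1 holds the lowest values, down to 0.78.

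Some other transcripts shared this pattern. The first principal component of the group-centred values held 41.9% of their variance, and the members correlated with it at r of 0.75 (Spats1) to 0.88 (Fank1). Of 14498 other genes, 136 (0.938%) had r above 0.9 with the mean of the 8, while the median gene had −0.20 and the lowest −0.82. The most alike were Mtm1, the phosphoinositide phosphatase myotubularin (r = 0.98), Cep112, a centrosomal protein (0.97), Csnk1g2, a casein kinase (0.97), Gpat4, an acyltransferase of glycerolipid synthesis (0.97), and Dnaaf11, a factor that assembles dynein arms (0.97). Their HD minus water log2 fold changes were −1.26 (q = 0.0020), −0.80 (q = 0.038), −0.58 (q = 0.22), −0.75 (q = 0.064) and −1.08 (q = 0.0061), and each had q = 1 after recovery. For single members the most correlated gene was Csnk1g2 for Tcp10b, Mfap3l and Phospho1 (r of 0.98, 0.98 and 0.96), Lrrc28 for Lrrc69 and Tbc1d5 (both 0.97), Dcaf5 for Styxl1 (0.98), Smg9 for Fank1 (0.97) and Eri3 for Spats1 (0.91). All these correlations are a description, since the genes of an array share its RNA and its overall signal.

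The mean of the 8 moved with several measures of the array, given here as r after removal of group means. A permutation test of r, with arrays permuted within groups, was adjusted by Benjamini-Hochberg over 9 measures. Adjusted p was 2.2e-05 for the leukocyte, erythroid and spermatid markers and for the array median. It was 0.018 for epididymal, 0.053 for fibroblast, 0.085 for Sertoli cell and 0.48 for meiosis markers, and 0.085 for the median correlation of an array to its group. Like that of the pairs, this test was against no relation at all. With the mean of 36 leukocyte and macrophage markers r was 0.75 (rho 0.76, r without 2 arrays 0.79), and 0.59 to 0.89 within the single groups. With 8 erythroid markers it was 0.71 (rho 0.70) and 0.54 to 0.86 within groups. With 44 spermatid and sperm markers it was 0.60 (rho 0.64), and with the array median −0.76 (rho −0.84), reaching −0.96 within HD-recovery. Without the arrays that stood apart r was 0.73 for leukocyte, 0.67 for erythroid and 0.49 for spermatid markers and −0.74 for the array median. HD replicate 5, which stood apart, had the highest spermatid, meiosis and Sertoli cell means of all arrays, at 9.91, 8.06 and 7.94. For the other lists, r was as follows. It was 0.32 with 27 epididymal markers, 0.24 with 14 fibroblast markers, 0.20 with 18 Sertoli cell markers (−0.005 without the arrays that stood apart) and 0.09 with 27 markers of meiosis. With the median correlation, the measure that set arrays apart, r was −0.20. Within groups it was −0.24 in water, −0.50 in HD, −0.72 in water-recovery and 0.78 in HD-recovery. By member, r with the leukocyte markers was 0.64 for Spats1 to 0.75 for Tbc1d5, and with the spermatid markers 0.54 for Tbc1d5 and Tcp10b to 0.66 for Fank1.

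These marker levels themselves differed between the arrays labelled HD and water. The leukocyte mean was 7.14 in HD (6.91 to 7.66) and 7.41 in water (7.08 to 7.71), with 7 of 36 markers lower at q under 0.05 in limma, and the list's median log2 fold change was −0.23. The 7 were the chemokine receptors Cx3cr1 (log2 fold change −0.36) and Ccr2 (−0.45), the lymphocyte genes Cd4 (−0.56), Cd5 (−0.27) and Gimap4 (−0.51), lysozyme Lyz2 (−0.95) and the Fc receptor chain Fcer1g (−0.68). The erythroid mean was 7.21 in HD (6.73 to 7.71) and 7.51 in water (7.03 to 7.87), with 1 of 8 lower, Ahsp (−0.25), and a median of −0.19. Of the spermatid and sperm markers 1 of 44 was lower, Odf1 (−0.22), and the list's median was 0.20. Of 18 Sertoli cell markers 1 was higher, Clu (1.11), and of 14 fibroblast markers 1 was lower, Dcn (−1.09), with medians of 0.01 and −0.04. None of 27 epididymal markers was called in limma (median 0.00, smallest p for Krt19 at 0.38 and Ptgds at −0.81, q = 0.064 and 0.069), and none of 27 meiosis markers (median 0.08, smallest p for Msh4 at −0.13 and Mael at 0.87, q = 0.15 and 0.22). In the recovery comparison 0 markers of any of these lists were called. With the leukocyte mean as a covariate the members' median was −0.25 and 0 of 8 kept q under 0.05. Over all probe sets that fit called 310, of which 20 were lower. With the erythroid mean, a covariate chosen after the data were seen, the members' median was −0.40 with 0 of 8, and 0 of all probe sets were called. All 8 members stayed below 0 under both covariates. In the recovery groups, where the leukocyte mean was 7.37 in HD-recovery and 7.46 in water-recovery, the members' median was 0.03 with either covariate. The part of these cells, of the germ cells and of the array median in the members' values was not tested.

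**Figure D4:**
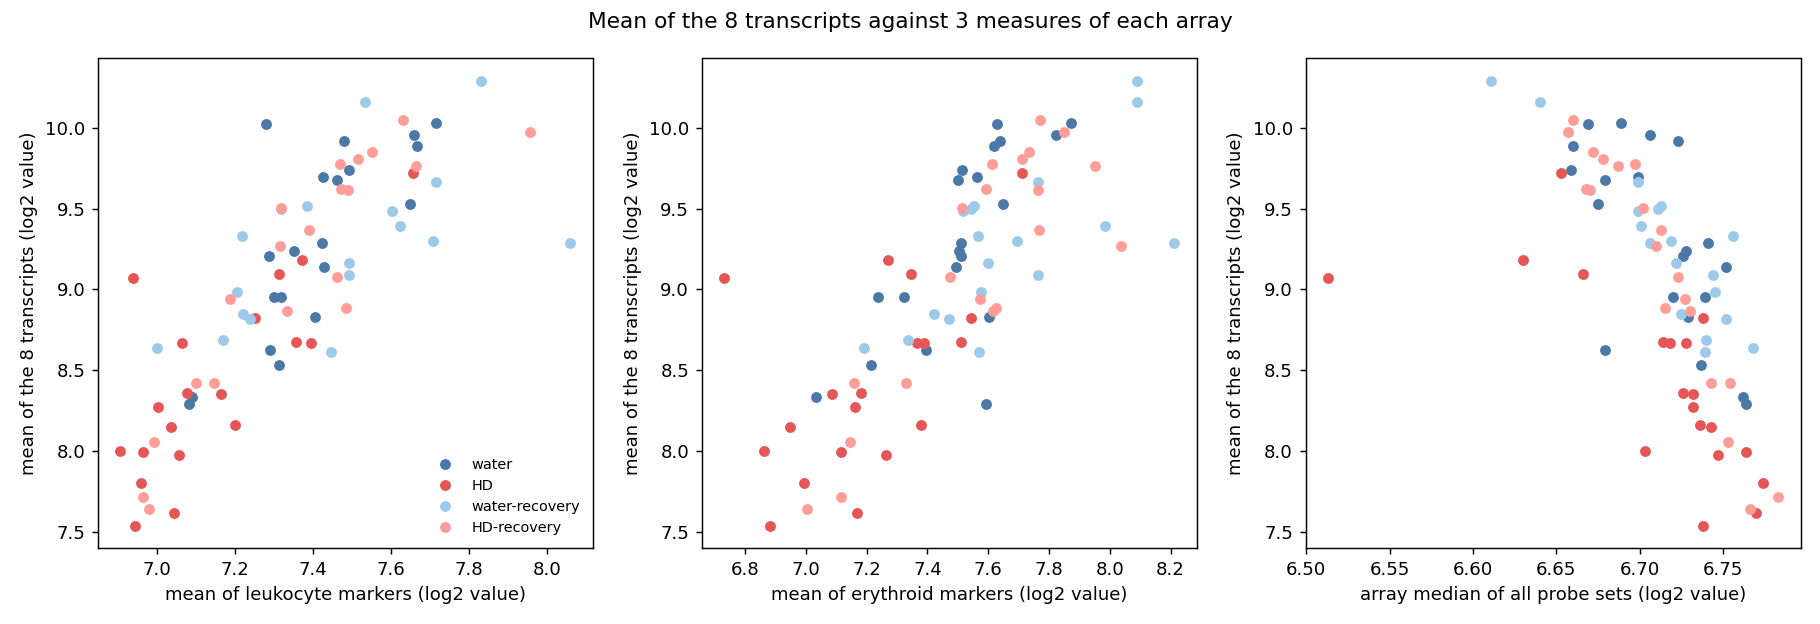
Mean log2 value of the 8 transcripts (y axis) against the mean of the leukocyte markers (left), the mean of the erythroid markers (middle) and the median of all probe sets (right) of each of the 77 arrays, coloured by group. The points rise with both marker means (r = 0.75 and 0.71 after removal of group means) and fall with the array median (r = −0.76), in exposed and control groups alike.

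Of the listed genes of the same families and pathways none passed the test, although a larger share of them than of all probe sets had a small unadjusted p. The lists went by symbol and can miss relatives under other names, and Fank1 had no list. The members were chosen for low values in HD and these relatives were not, so the contrast between them is a description. Of 163 measured relatives in 8 lists, 0 passed q under 0.05 in limma for HD against water and 32 had an unadjusted p under 0.05, 11 of them lower and 21 higher. That is 19.6% of the relatives, against 8.30% of all probe sets (2425). These shares are of unlike sets: each relative was a named gene on its brightest probe set, and 13581 of all probe sets had no symbol. Their median log2 fold change was 0.02, and the range of −0.74 to 0.83 held none as low as the members' median. Without the arrays that stood apart 62 of the 163 were called, when 8818 of all 29214 probe sets were. After recovery 0 of 163 were called (22 at an unadjusted p under 0.05, 2 lower and 20 higher, or 13.5% against 4.51% of all probe sets), and 43 of 163 once the 10 arrays that stood apart were dropped, when 3834 of all probe sets were.

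Around Tcp10b, 8 further t-complex genes had a median of 0.14, which became −0.02 without the arrays that stood apart, with Tcte1 at 0.55 (q = 0.22) and Tcp11 at 0.52 (q = 0.31). Around Spats1, 20 of 21 spermatogenesis-associated (Spata and Spats) genes were above 0 in HD minus water, opposite in sign to Spats1, with a median of 0.30 and none past the test. Spata31f3 had 0.81 (q = 0.23) and Spata19, of the sperm mitochondrial sheath, 0.83 (q = 0.30). In HD-recovery minus water-recovery 18 of these 21 genes were also above 0 (median 0.14), with Spata31f3 at 0.55 and Spata19 at 0.83, and none passed the test. Around Lrrc69, 47 genes with symbols that begin with Lrrc had a median of 0.04. The lowest of them, Lrrc28, had −0.74 (q = 0.093) and was also the gene most correlated with Lrrc69, and Lrrc57 had −0.49 (q = 0.19). Dnaaf11, also named Lrrc6, was not in this list, which went by symbol. Its log2 fold change of −1.08 (q = 0.0061 in limma) was below the −0.95 of Lrrc69.

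Around Styxl1, 25 dual-specificity phosphatases and Styx relatives had a median of −0.01, with Dusp1, an early-response phosphatase of MAP kinases, at −0.45 (q = 0.19) and Dusp6 at −0.13 (q = 0.55). Around Phospho1, 21 genes of phosphocholine and phosphoethanolamine metabolism had a median of −0.01, and Phospho2, its closest namesake, had 0.39 (q = 0.24), above 0 where Phospho1 was below it, while the choline transporter Slc44a2 had −0.15 (q = 0.35). Around Tbc1d5, 25 TBC domain genes had a median of −0.01, with Rabgap1l at −0.26 (q = 0.095) and Tbc1d21 at 0.42 (q = 0.33). Its partners, 12 retromer and Rab7 genes, had a median of −0.04, which was −0.24 without the arrays that stood apart, with Rab7a at −0.41 (q = 0.69) and the sorting nexin Snx27 at −0.18 (q = 0.74). The 4 microfibril-associated genes beside Mfap3l had a median of −0.10, with Mfap4 at −0.17 (q = 0.17) and Mfap2 at −0.13 (q = 0.63).

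**Figure D5:**
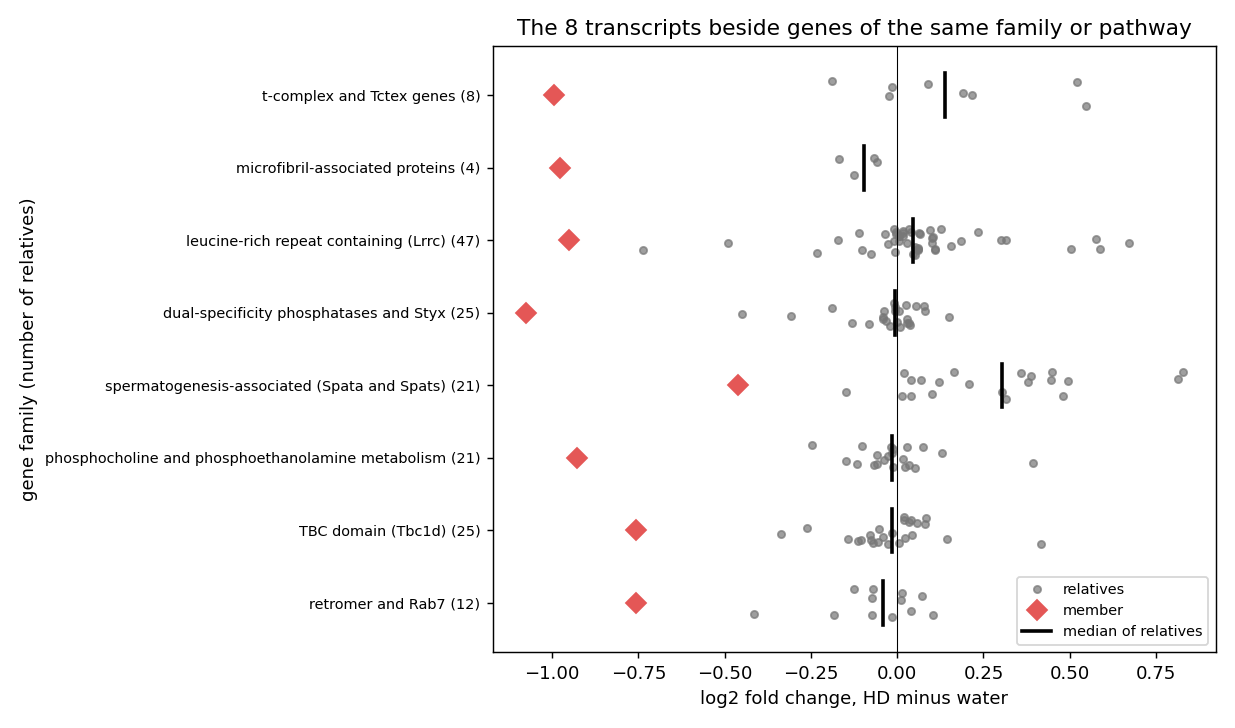
Log2 fold change of HD minus water (x axis) for each member but Fank1 (red diamonds) and for the listed relatives in its family or pathway (grey points, black line for their median), by list (y axis, number of relatives in brackets). Fank1 had no list and is not drawn. Tbc1d5 is drawn beside both of its lists, and in each list the diamond lies left of every grey point, the members having been chosen for low values on these arrays.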

How the data were processed

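Sperm RNA of 77 rats was hybridized to Affymetrix Rat Gene 1.0 ST arrays, 1 array per rat. The authors deposited 1 table of values for 29214 probe sets, which were taken as log2 intensities from their range of 2.51 to 14.63. The study states that intensities were normalized by earlier published methods, and its steps are not described in the sources used here. The number of arrays limits the precision. Samples were grouped by their labels.

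Following the study's design, HD was set against water and HD-recovery against water-recovery in limma (version 3.58.1, R version 4.3.3) over all probe sets, and p-values were turned into Storey q-values at a threshold of 0.05. The fit was tested on simulated data in which each probe set varied independently, with the SD of the water arrays in both groups. Variation shared between probe sets, as seen in these arrays, was not covered by it. Genes were named from the platform annotation (15310 probe sets with 1 symbol, 323 with several, 13581 with none), using the brightest probe set of a gene. Correlations were taken after removal of group means, with 100000 permutations of arrays within groups. Promoters came from RefSeq. The text names all 8 members, of each family and marker list the genes at q under 0.05 or else the 2 of smallest p (the rule asked for this in family lists only, and its use for marker lists was chosen after their values were seen; Prm1, Smcp, Ptprc and Hbb are named as defining markers), the 5 genes most correlated with the members' mean and the gene most correlated with each member. The members and lists were chosen with earlier results of these data known.

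The alternatives tried were array medians subtracted, quantile normalization, brighter probe sets only, 1 fit of all groups, Benjamini-Hochberg adjustment, array weights, arrays that stood apart left out, covariates, a replicate block and each array left out in turn.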

Additional observations from a re-analysis of the deposited data

How the results depend on the processing

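The HD minus water differences of all 8 transcripts stayed below 0 under every alternative run. The members were chosen on these arrays, so this sign and the members' counts for HD against water are a description and no test. The number with q under 0.05, 8 as reported, was 8 under quantile normalization, with brighter probe sets only, in 1 fit of all groups, by Benjamini-Hochberg, with array weights, without the arrays that stood apart and with a covariate for the first principal component. That component was taken after group means were removed, so it could not change the differences (median −0.94) but only the spread around them. Brighter probe sets only, 1 fit of all groups and Benjamini-Hochberg adjustment also left each difference as it was. It was 5 after array medians were subtracted (Fank1 q = 0.074, Spats1 q = 0.095, Tbc1d5 q = 0.058), and 0 with the leukocyte covariate and with the erythroid covariate, the latter chosen after the data were seen. Leaving out 1 array gave 5 to 8, with 5 without HD replicates 2, 7, 12 or 16 or water replicates 3, 7, 9 or 10. With the replicate number as a block (replicate block) it was 7, Spats1 having q = 0.067. Most arrays did not correlate best with their own number, as 2 of 19 did for exposure and 4 of 18 for recovery. Deviations were correlated above 0.1 in 8 of 19 exposure pairs and 8 of 18 recovery pairs, at most 0.65 and 0.64. Whether arrays of the same number share variation was not tested. In the recovery comparison 0 members were called under every alternative, each left-out array and the replicate block included. Over all probe sets HD against water called 138 as reported, 63 after array medians were subtracted, 352 after quantile normalization, 222 among brighter probe sets only, 221 in 1 fit of all groups, 156 with the replicate block, 1462 with the first principal component as covariate, 5178 with array weights (2534 lower) and 8818 without the arrays that stood apart (3727 lower), and 76 to 376 with 1 array left out. The leukocyte covariate gave 310 (20 lower) and the erythroid covariate 0. In the recovery comparison, 0 as reported, it was 47, 527 and 3834 with the principal component, array weights and those arrays left out, and 507 and 109 with the leukocyte and erythroid covariates. Relatives called in HD against water numbered 3 after quantile normalization and 62 without the arrays that stood apart, against 0 as reported, and 43 in the recovery comparison without them. The cause of these changes was not tested. The pair correlations lay between 0.82 and 0.97 after quantile normalization. The next probe set of a member could not be tried, since each has 1.

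The recovery difference turned above 0 in the following cases, in the order Tcp10b, Mfap3l, Lrrc69, Styxl1, Fank1, Phospho1, Spats1 and Tbc1d5. With array weights it was 0.071, 0.072, 0.038, 0.12, 0.075, 0.074, 0.053 and 0.039. Without the arrays that stood apart it was 0.20, 0.21, 0.19, 0.30, 0.21, 0.21, 0.12 and 0.15. With the erythroid covariate it was 0.032, 0.034, 0.012, 0.085, 0.055, 0.039, 0.029 and 0.022. With the leukocyte covariate it was 0.031, 0.031, 0.063, 0.050, 0.028, 0.019 and 0.0065 for the same transcripts except Lrrc69, which stayed below 0.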
